A study of Homo sapiens with 6 samples.

Results

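The 10 genes described here encode the core proteins that make microRNAs and carry out silencing with them: AGO1, AGO2, AGO3, AGO4, DICER1, DROSHA, DGCR8, XPO5, TARBP2 and TNRC6A. They were chosen by name, as the rows of the deposited table whose Ensembl identifier maps to these symbols, and all 10 of the 10 were found among 61860 genes. RNA of A498, a human line from a kidney carcinoma, was sequenced in 2 groups of 3 libraries, and the labels give transfection or infection as the treatment of both. The control group (PTPRZ-nc) is labelled as the control of a PTPRZ1 knockdown by plasmid, and the knockdown group (PTPRZ-Si) as a PTPRZ1 knockdown by siRNA. PTPRZ1 encodes a receptor tyrosine phosphatase. Short interfering RNAs are loaded into the same Argonaute proteins as microRNAs. The part of the means of knockdown in any difference below cannot be told apart from that of PTPRZ1 itself.

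MicroRNAs begin as hairpins in long transcripts. The nuclease DROSHA and its RNA-binding partner DGCR8, together called the Microprocessor, cut the hairpin out in the nucleus, and the transport receptor XPO5 carries it to the cytoplasm. There DICER1, with TARBP2 or PRKRA, cuts it to a duplex, and an Argonaute takes up 1 strand. The Argonaute finds messenger RNAs mainly through the seed of the microRNA, its bases 2 to 8, and binds a TNRC6 protein, which recruits the enzymes that shorten poly(A) tails and remove caps. AGO2 is the human Argonaute best known for cutting a fully matched target, which is how an siRNA acts.

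The libraries measure messenger and other long RNAs, not mature microRNAs. The sequences that link them to the pathway are those of microRNAs cut from transcripts counted here. They are shown as background to the paragraphs on DGCR8 and on the microRNA host genes, and no call rests on them. All are RefSeq sequences (GRCh38.p14), 5′ to 3′, with the seed in capitals. The first 3 share 1 seed and lie in the host genes MIRLET7IHG, MIR4458HG and MIRLET7BHG; the next 3 share the first 6 of their 7 seed bases and lie in DLEU2 and MIR503HG; the last 2 lie in exons of DGCR8 itself.
hsa-let-7i-5p: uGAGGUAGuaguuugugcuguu
hsa-miR-4458: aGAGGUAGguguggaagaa
hsa-let-7b-5p: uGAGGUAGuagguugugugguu
hsa-miR-15a-5p: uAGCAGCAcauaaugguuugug
hsa-miR-16-5p: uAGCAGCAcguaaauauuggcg
hsa-miR-503-5p: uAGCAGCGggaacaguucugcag
hsa-miR-3618: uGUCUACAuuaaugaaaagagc
hsa-miR-1306-3p: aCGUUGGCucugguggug

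Total counts in genes ran from 13726908 to 21469746 per library, and the 10 genes together held 8532 to 13502 of them. PTPRZ1 had 0 counts in each of the 6 libraries, where 3 counts, the limit that a count of 0 allows, correspond to 0.14 to 0.219 CPM (counts scaled to library size, with TMM factors in the values that follow), for counting error only. The knockdown could therefore not be checked by its target, and every direction rests on the labels. Of 10 markers of kidney tubule and clear cell carcinoma, 9 had at least 291 counts over the 6 libraries. CA9 was the lowest of these, at 2.3 to 3.581 CPM. NDUFA4L2 had 26 counts over the 6 libraries, and the leukocyte markers PTPRC and CD3E and the endothelial marker CDH5 had 0. The summed level of the 10 was 3357 to 3416 CPM in the controls and 3374 to 3508 CPM in the knockdown, but single markers differed between the groups without overlap. PAX8 had 288.9 to 328.6 CPM in the controls and 534.3 to 579.1 CPM in the knockdown, CDH6 65.84 to 82.09 against 151.7 to 160.1 CPM, and VIM 1129 to 1220 against 756.8 to 813.7 CPM. Their part in the results below was not tested. Nothing in the labels says that the libraries of a group came from separate cultures, so the spread behind each p-value is that of libraries and may be technical. Control replicate 2 differed most from its group (chi-square per degree of freedom of 5.248 and 6.226, against 2.668 between the other controls).

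All 10 genes passed the filter on low counts. In edgeR's quasi-likelihood test, with a call at an adjusted p of at most 0.05, AGO2, AGO3 and DICER1 were higher in the knockdown, DROSHA and TNRC6A were lower, and the other 5 did not pass. These 5 calls among 10 genes stand beside 27.4% of all 15476 tested genes, 14.0% higher and 13.4% lower. Well-counted genes were called more often, and the share was 39.7% among the 8352 genes with a mean CPM at least that of AGO4, the lowest of the 10. The groups did not overlap for the same number of members, 5, against 40.8% of all tested genes. The members' median log2 fold change was -0.07, and their median absolute change of 0.18 was close to that over all tested genes, 0.18.

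**Figure D1:**
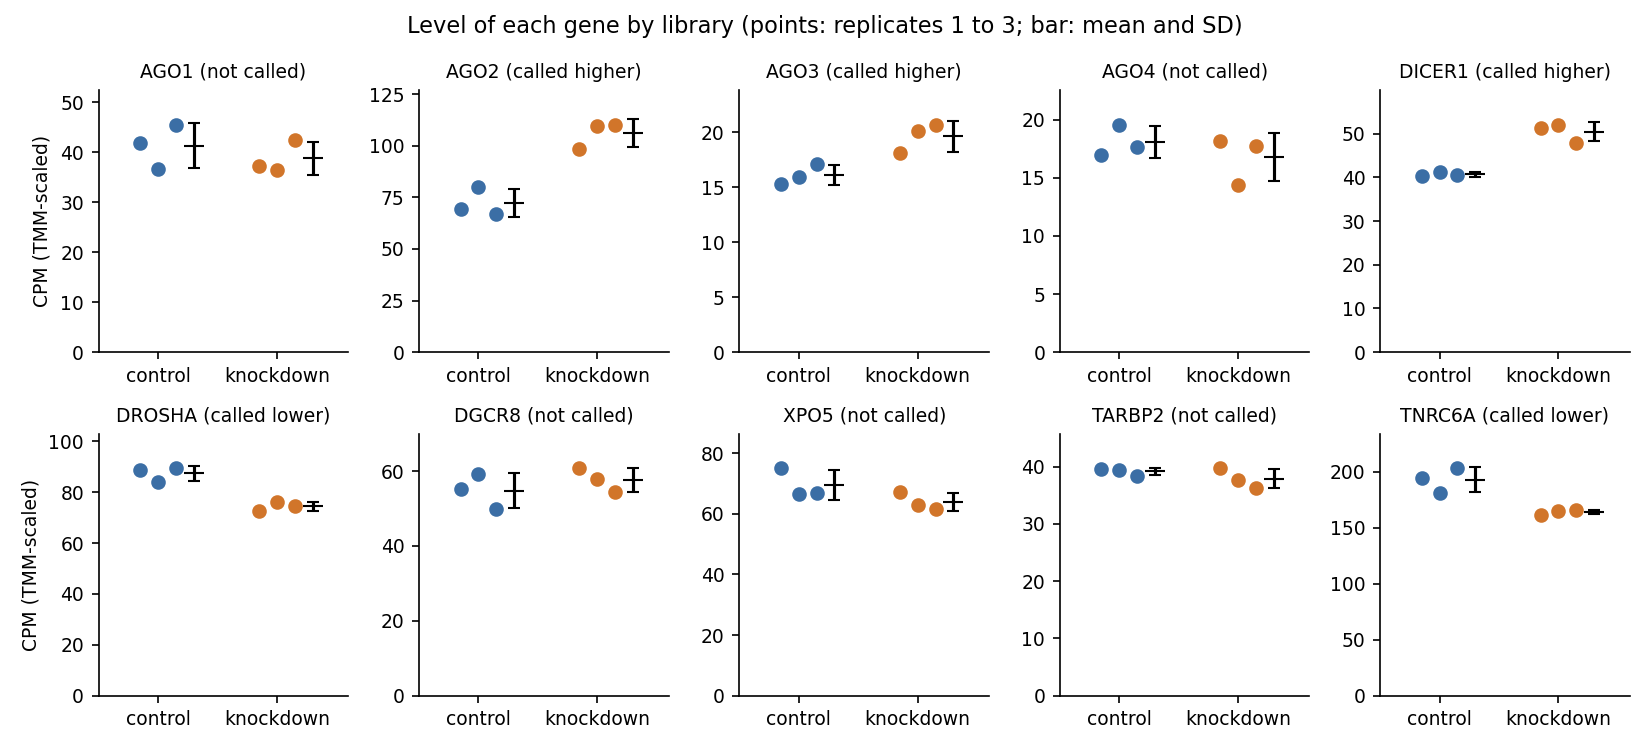
TMM-scaled CPM (vertical axis, from 0) of the 10 genes in each of the 3 control (blue) and 3 knockdown (orange) libraries, with the mean and SD of each group beside the points. The groups do not overlap for AGO2, AGO3, DICER1, DROSHA and TNRC6A.

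DROSHA, the nuclease of the Microprocessor (ENSG00000113360, GRCh38 chromosome 5 from 31400497 to 31532196, minus strand), had 88.7, 84.0 and 89.5 CPM in control replicates 1, 2 and 3 and 72.5, 76.3 and 74.4 CPM in knockdown replicates 1, 2 and 3. Every knockdown library lay below every control. The mean was 87.4 ± 2.98 CPM in the controls and fell to 74.4 ± 1.89 CPM (n = 3 each, SD), a change of -0.23 on the log2 scale (SE 0.0514, adjusted p = 0.0026 in edgeR). Its partner DGCR8, which binds the hairpin (ENSG00000128191, chromosome 22 from 20080232 to 20111877, plus strand), had 55.1, 59.2 and 49.9 CPM in the controls and 60.8, 58.0 and 54.3 CPM in the knockdown. These groups overlapped and DGCR8 did not pass (log2 fold change 0.08, 95% interval -0.07 to 0.22, edgeR adjusted p = 0.45).

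The Microprocessor is known to cut hairpins in the DGCR8 messenger RNA as well. The hairpins of miR-3618 and miR-1306, whose mature sequences are printed above, have 88 and 85 bases and lie wholly in annotated DGCR8 exons on the same strand. Both microRNA genes are listed at 0 counts in all 6 libraries. By the default of the counting program, read pairs that cannot be assigned to 1 gene are left out. Some pairs over these hairpins, and over an antisense gene that shares 7.19% of DGCR8's exon bases, may therefore be missing from DGCR8's count. How many were left out was not measured. Per kb of exon, a scale that allows genes to be compared, the ratio of the DROSHA level to the DGCR8 level was 1.51, 1.33 and 1.69 in the controls, against 1.12, 1.24 and 1.29 in the knockdown. The lowest control lay just above the highest knockdown library.

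XPO5, which exports the cut hairpin (ENSG00000124571, chromosome 6 from 43522330 to 43576075, minus strand), had 75.1, 66.5 and 66.8 CPM in the controls and 67.1, 62.8 and 61.6 CPM in the knockdown. Knockdown replicate 1 lay among the controls, and XPO5 did not pass (log2 fold change -0.13, 95% interval -0.256 to 0.00435, edgeR adjusted p = 0.147). It shares 348 exon bases with POLR1C on the other strand. The counting did not separate strands, so by the same default some pairs over these bases may be missing from XPO5's count.

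DICER1, the nuclease that makes the mature duplex (ENSG00000100697, chromosome 14 from 95086228 to 95158010, minus strand), was counted at 40.2, 41.3 and 40.6 CPM in the controls and 51.2, 52.1 and 48.0 CPM in the knockdown. The controls lay close together and every knockdown library lay above them. The mean rose from 40.7 ± 0.526 to 50.4 ± 2.18 CPM (SD, n = 3 each), 1.24-fold (log2 fold change 0.31 with an SE of 0.0624, adjusted p = 0.00131 in edgeR). Within the same pathway step, the groups overlapped for TARBP2, which holds the RNA for DICER1 (ENSG00000139546, chromosome 12 from 53500921 to 53506431, plus strand), with 39.7, 39.4 and 38.4 CPM against 39.7, 37.7 and 36.3 CPM. TARBP2 did not pass (log2 fold change -0.05, 95% interval -0.19 to 0.09, edgeR adjusted p = 0.637). PRKRA, the other partner of DICER1, had a mean of 37.1 CPM in the controls and 41.1 CPM in the knockdown and did not pass either (edgeR adjusted p = 0.13), although its groups did not overlap.

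AGO2 (ENSG00000123908, chromosome 8 from 140520156 to 140635619, minus strand) differed most of the 10 genes. It had 69.5, 79.8 and 67.2 CPM in control replicates 1, 2 and 3 and 98.6, 109.7 and 110.3 CPM in the knockdown libraries. The lowest knockdown library stood well above control replicate 2, the highest control. Its mean rose from 72.2 ± 6.72 to 106.2 ± 6.56 CPM (SD, n = 3 each), 1.48-fold (log2 fold change 0.56 with an SE of 0.065, adjusted p = 5.03e-06 in edgeR). Among the 4243 called genes, 785 had an absolute log2 fold change at least as large.

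AGO3 (ENSG00000126070, chromosome 1 from 35930718 to 36072500, plus strand) had 218 to 442 counts per library, the fewest of the 10 genes in 4 of the 6 libraries. It was at 15.2, 15.9 and 17.1 CPM in the controls and 18.1, 20.1 and 20.7 CPM in the knockdown, so the groups did not overlap but lay close. The mean rose from 16.1 ± 0.921 to 19.6 ± 1.37 CPM (SD, n = 3 each), a change of 0.29 on the log2 scale (SE 0.0917, adjusted p = 0.0261 in edgeR). This call is the least firm of the 5: it was lost with DESeq2 (adjusted p = 0.0544), without control replicate 1 (edgeR adjusted p = 0.106), without knockdown replicate 2 (edgeR adjusted p = 0.0875), without knockdown replicate 3 (edgeR adjusted p = 0.118) and without both replicates numbered 2 (edgeR adjusted p = 0.0775). Over all 14 alternatives its adjusted p ran from 0.0203 to 0.118 and its log2 fold change from 0.25 to 0.34.

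The remaining Argonautes did not pass. AGO1 (ENSG00000092847, chromosome 1 from 35869808 to 35930528, plus strand) had 41.8, 36.5 and 45.5 CPM in the controls and 37.3, 36.4 and 42.5 CPM in the knockdown (log2 fold change -0.09, 95% interval -0.27 to 0.08, edgeR adjusted p = 0.442). AGO4 (ENSG00000134698, chromosome 1 from 35808172 to 35857890, plus strand) had 17.0, 19.6 and 17.7 CPM against 18.2, 14.4 and 17.8 CPM (log2 fold change -0.11, 95% interval -0.33 to 0.11, edgeR adjusted p = 0.487). Groups overlapped for both genes, and the intervals leave room for falls of AGO1 or AGO4 as large as that of DROSHA.

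**Figure D2:**
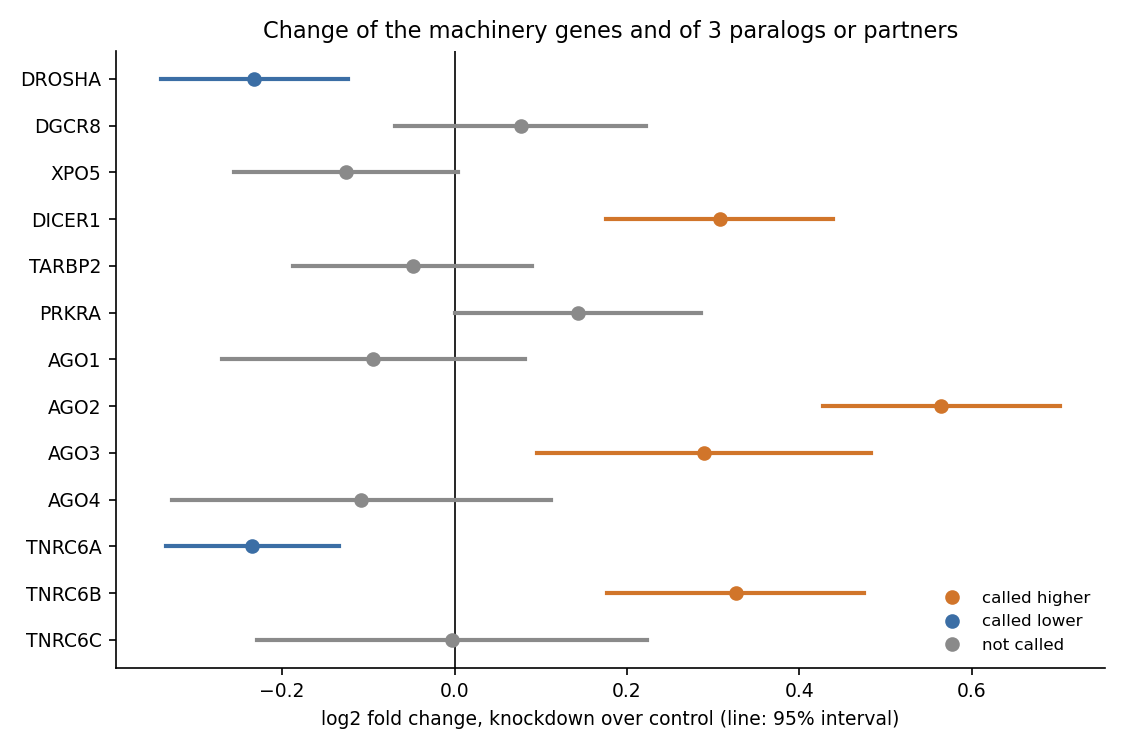
Log2 fold change of the knockdown over the control (horizontal axis; points) with its 95% interval (lines) for the 10 genes and for PRKRA, TNRC6B and TNRC6C, in the order of the pathway. AGO2 stands farthest to the right at 0.56, and DROSHA and TNRC6A lie to the left of 0 at -0.23 each.

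With levels per kb of exon, the 4 Argonaute genes summed to 10.5, 11.1 and 10.8 CPM per kb in the controls and 12.3, 12.5 and 13.4 CPM per kb in the knockdown. AGO2 was the largest part in every library. Its share of the sum was 42.0%, 45.3% and 39.4% in the controls, against 50.8%, 55.5% and 51.8% in the knockdown, and the groups did not overlap. The share of AGO1 went from a mean of 27.6% ± 3.54 to 21.9% ± 0.866 and that of AGO4 from 23.1% ± 1.02 to 18.2% ± 2.26 (SD, n = 3 each). AGO3 remained the smallest part, at 7.05% ± 0.392 and 7.27% ± 0.322. That place rests on annotated exon length, 21157 bases for AGO3 and 7267 for AGO4. In CPM the mean of AGO3 was below that of AGO4 in the controls (16.1 against 18.1) and above it in the knockdown (19.6 against 16.8). These shares are a description of RNA levels and have no test.

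**Figure D3:**
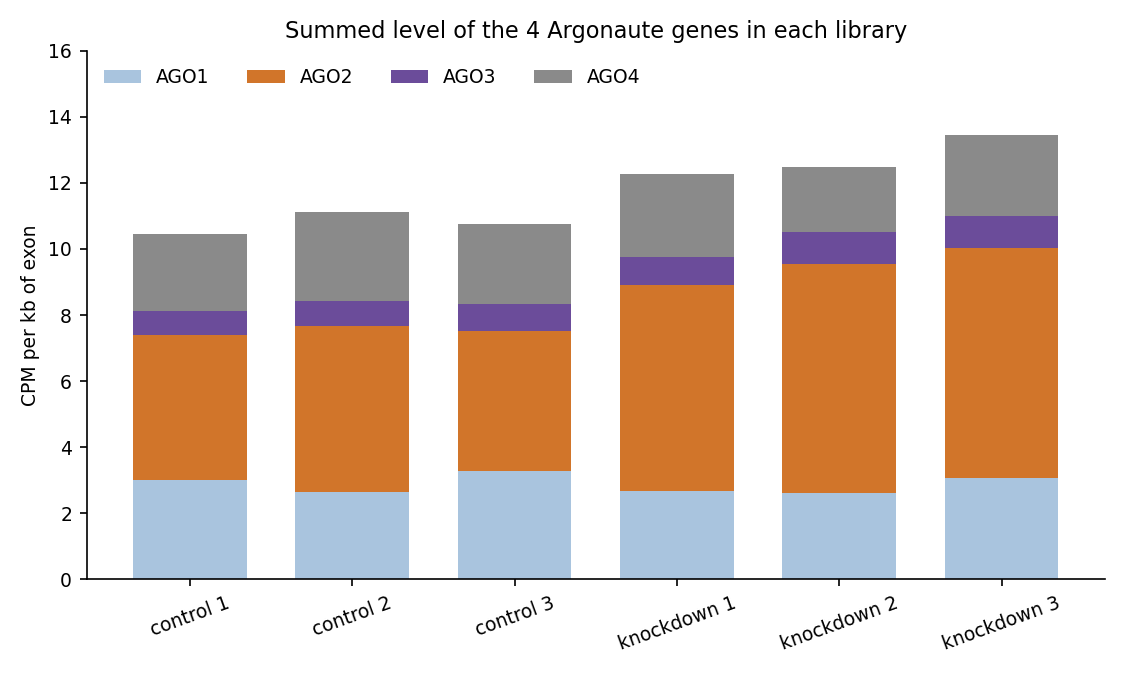
Stacked level of AGO1, AGO2, AGO3 and AGO4 (vertical axis, CPM per kb of exon, from 0) in each of the 6 libraries. The summed bars of the 3 knockdown libraries reach 12.3 to 13.4 and those of the controls 10.5 to 11.1, and the AGO2 segment is the largest in each bar.

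AGO4, AGO1 and AGO3 lie one after another on the same strand of chromosome 1, with 11917 bases between AGO4 and AGO1 and 189 between AGO1 and AGO3, while AGO2 is on another chromosome. Among the 3 nearest tested protein-coding genes on each side, none passed higher and 2 passed lower. CLSPN, a replication checkpoint adaptor 38204 bases before AGO4, had a log2 fold change of -0.33 (edgeR adjusted p = 0.00251), and MAP7D1, a microtubule-binding protein 83078 bases after AGO3, one of -0.31 (edgeR adjusted p = 4.58e-05). PSMB2 (0.00), C1orf216 (-0.14), ADPRS (-0.12) and TRAPPC3 (-0.09) did not pass. AGO3 was thus the 1 gene called higher among these 9, and whether its change differs from that of AGO1 was not tested.

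**Figure D4:**
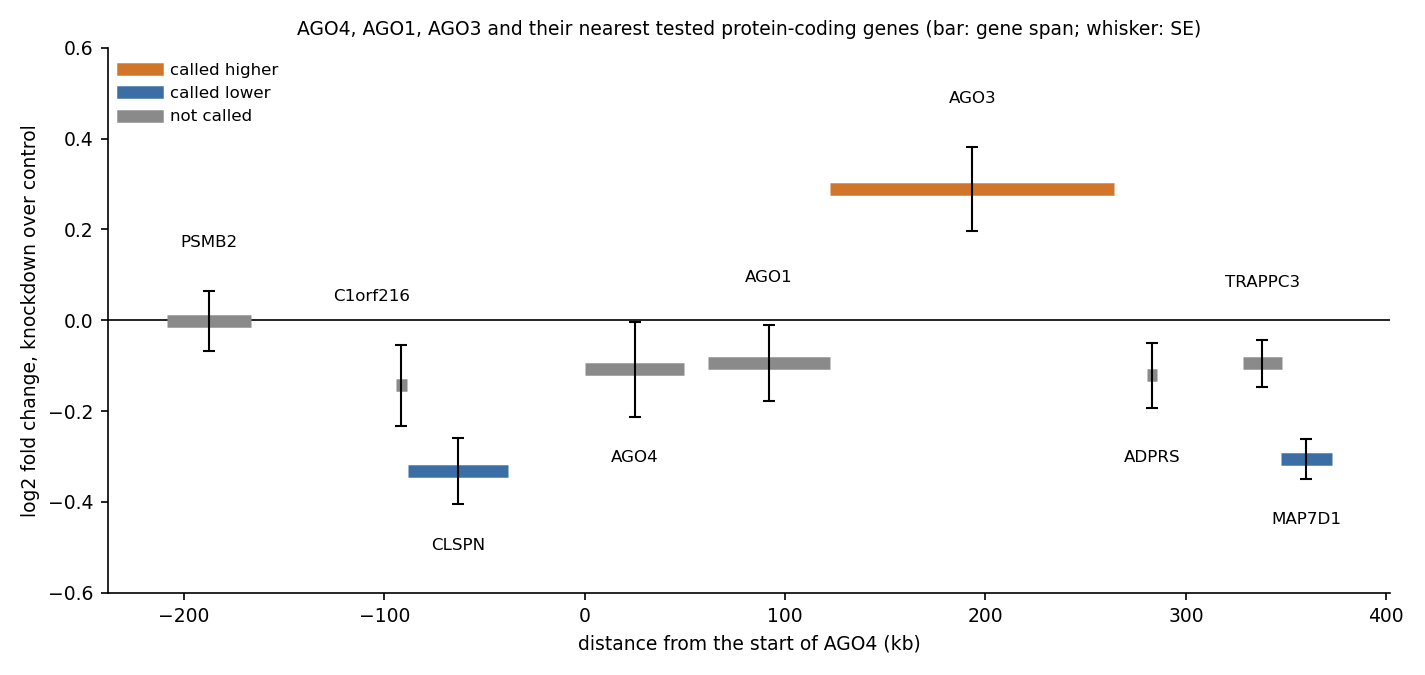
Log2 fold change (vertical axis, with SE) of AGO4, AGO1, AGO3 and the 3 nearest tested protein-coding genes on each side, drawn as gene spans by distance in kb from the start of AGO4 (horizontal axis). AGO3 lies at 0.29, and the other 8 genes lie at or below 0.

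TNRC6A, the scaffold that an Argonaute binds to silence its target (ENSG00000090905, chromosome 16 from 24610209 to 24827632, plus strand), had 194.6, 181.3 and 203.4 CPM in the controls and 161.8, 164.9 and 165.9 CPM in the knockdown. Knockdown libraries lay close together and below every control. Its mean fell to 164.2 ± 2.14 CPM from 193.1 ± 11.1 CPM (n = 3 each, SD), a change of -0.23 on the log2 scale (SE 0.0475, adjusted p = 0.00128 in edgeR). Its paralog TNRC6B went the other way, with 48.9, 42.2 and 51.4 CPM in the controls and 57.0, 60.0 and 62.0 CPM in the knockdown (log2 fold change 0.33 with an SE of 0.0708, adjusted p = 0.00227 in edgeR), and TNRC6C did not pass (0.00, 95% interval -0.23 to 0.22). Per kb of exon, TNRC6A made up 76.4%, 77.8% and 77.6% of the summed TNRC6 level in the controls, against 72.6%, 72.7% and 70.0% in the knockdown. TNRC6B made up 12.3% ± 0.506 of the sum in the controls and 16.8% ± 0.299 in the knockdown (SD, n = 3 each), a description with no test.

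On the same per-kb scale the order of levels in the controls ran from TNRC6A (14.9 ± 0.861 CPM per kb) and DROSHA (11.2 ± 0.383) through TARBP2 (9.57 ± 0.161), XPO5 (8.15 ± 0.569), DGCR8 (7.48 ± 0.639) and AGO2 (4.56 ± 0.425) to DICER1 (3.31 ± 0.0428), AGO1 (2.97 ± 0.324), AGO4 (2.49 ± 0.185) and AGO3 (0.76 ± 0.0436). XPO5 and DGCR8 overlapped between libraries there, as did DICER1 with AGO1 and AGO1 with AGO4, so their order is not fixed by these data. In the knockdown DGCR8 (7.89 ± 0.444) stood above XPO5 (7.49 ± 0.343), again with overlap, DROSHA overlapped with TARBP2, and no other place changed. AGO2 reached 6.71 ± 0.415 CPM per kb and DICER1 4.10 ± 0.178. Lengths are those of all annotated exons, and with the length of the principal transcript TARBP2 moved up, to the second place in the controls and the first in the knockdown.

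The rest of the pathway was read from lists of genes by role. Each stands beside the 27.4% of all tested genes that were called and their median log2 fold change of 0.001. Most genes of these lists, PIWI proteins and microRNA hosts aside, had a mean CPM at least that of AGO4, where the share was 39.7%. Among 22 tested cofactors of microRNA biogenesis 2 rose, 5 fell and 15 did not pass (31.8% called, median 0.04). KHSRP, a splicing factor that also binds some microRNA precursors, rose from a mean of 286.8 to 354.2 CPM (edgeR adjusted p = 4.45e-05), and HNRNPA1, an RNA-binding protein, from 475 to 563.6 CPM. ADAR, which edits double-stranded RNA, fell from 955.4 to 863.9 CPM (edgeR adjusted p = 0.00298). Of 15 chaperones and other factors that help to load Argonautes 5 rose, 1 fell and 9 did not pass (40% called, median 0.05). STIP1, which links HSP70 and HSP90 chaperones, rose most clearly, from 155.6, 141.5 and 149.4 CPM in the controls to 202.6, 206.4 and 204.4 CPM (log2 fold change 0.46 with an SE of 0.0454, adjusted p = 9.67e-07 in edgeR). The chaperones HSPA4 (0.27) and DNAJA2 (0.26) also rose, and the HSP90 activator AHSA1 fell (-0.18).

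Among 39 silencing effectors, the deadenylation, decapping and TNRC6-linked proteins, 6 rose, 7 fell and 26 did not pass (33.3% called, median 0.05). TOB1, an adaptor of deadenylation, rose from a mean of 202.4 to 281.6 CPM (edgeR adjusted p = 1.71e-06). MOV10, a helicase found with Argonautes, fell from 178.7, 180.4 and 163 CPM in the controls to 135.4, 131.7 and 141 CPM (log2 fold change -0.35 with an SE of 0.0499, adjusted p = 4.44e-05 in edgeR), and AJUBA, a LIM domain protein, fell as well (-0.29). Of 23 tested genes of Argonaute and microRNA turnover, modification or transport 7 rose, 3 fell and 13 did not pass (43.5% called, median 0.06). The 3 that fell were P4HB, a subunit of prolyl hydroxylase (-0.38), IPO8, an import receptor that binds Argonautes (-0.45, edgeR adjusted p = 8.97e-06), and the RNA-degrading enzyme PNPT1 (-0.44). P4HA1, the partner subunit of P4HB in that enzyme and named after its value was seen, rose from a mean of 54.2 to 70.7 CPM (0.39, edgeR adjusted p = 7.43e-05). Of the PIWI proteins, the germline branch of the family, PIWIL4 alone had enough counts to be tested, at means of 1.26 and 0.782 CPM, and it did not pass (edgeR adjusted p = 0.154).

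**Figure D5:**
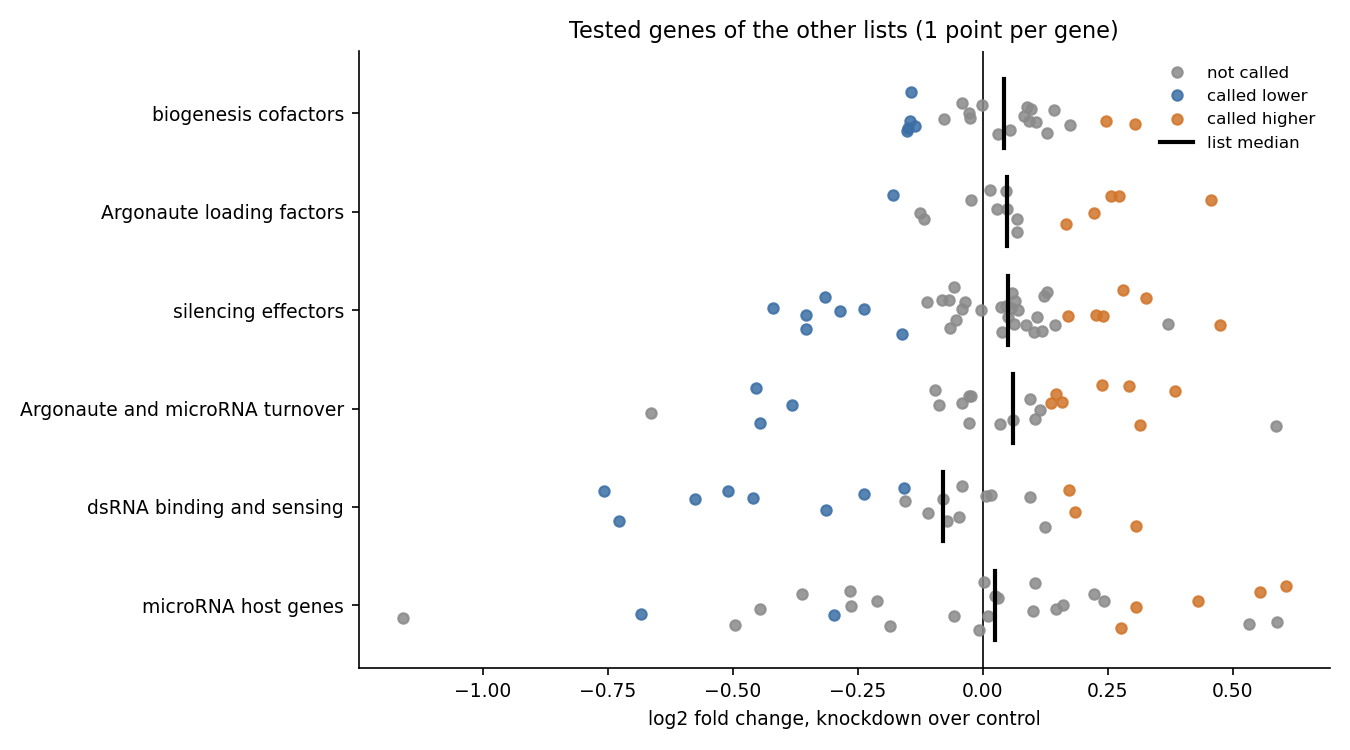
Log2 fold change of the knockdown over the control (horizontal axis) for each tested gene of 6 lists (rows), coloured by its call, with the median of each list as a black bar. Genes called higher and lower occur in every list, and the medians lie between -0.08 and 0.06.

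MicroRNA host genes are long transcripts from which the Microprocessor cuts microRNAs. Of 85 in the table, 29 had enough counts to be tested: 5 rose, 2 fell and 22 did not pass (24.1% called, median 0.02). MIRLET7IHG, the host of let-7i, rose from 12.7, 13.4 and 15.9 CPM in the controls to 21.5, 22.9 and 19.8 CPM, with no overlap (log2 fold change 0.61 with an SE of 0.102, adjusted p = 0.000259 in edgeR). MIR1915HG rose from a mean of 18.0 to 24.3 CPM (edgeR adjusted p = 0.00146), and MIR4435-2HG fell from 63.7 to 51.8 CPM (edgeR adjusted p = 0.00116). The other 4 called hosts were named after their values were seen. MIR193BHG (0.31), MIR4458HG (0.56) and MIR503HG (0.28) rose, and DLEU2, the host of miR-15a and miR-16, fell to 3.69 ± 0.117 from 5.89 ± 0.615 CPM (SD, n = 3 each). A host's level is not that of its mature microRNA, which depends on cutting and loading and was not measured.

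By the sequences above, 2 of the hosts that rose carry a microRNA with the seed GAGGUAG, let-7i-5p in MIRLET7IHG and miR-4458 in MIR4458HG. The same seed lies in 4 further tested hosts that did not pass: MIRLET7BHG (log2 fold change 0.00), MIR100HG (-0.27), MIR99AHG (0.24) and MIR4500HG (0.01). MIRLET7A1HG, named for let-7a, did not pass either (-0.01, edgeR adjusted p = 0.985) and is not among the 4, because no RefSeq microRNA lay within its annotated span on its strand. The match to this seed, CTACCTC, was searched on the transcript strand in the 3′ UTR of 1 principal transcript per gene (GENCODE 29), and 8.7% of 19128 such UTRs hold it. AGO2 has 2 matches in 11888 bases, and AGO1, AGO3 and TARBP2 have 1 each, while the other 6 genes, DICER1 among them, have 0 in this window. The AGO UTRs are long, and 47.3% to 54.8% of UTRs within 20% of the length of those of AGO1, AGO2 and AGO3 also hold a match, against 2.3% for the 283 bases of TARBP2. The sites in AGO1, AGO3 and TARBP2 are shown with the match in capitals, and those of AGO2 are not shown. AGO2 and AGO3 were called higher, while AGO1 and TARBP2 were not. A match is a description of letters, not evidence of binding.
AGO1: ttctccttattcctcCTACCTCc
AGO3: aatacctgtcctcacCTACCTCa
TARBP2: ctgtgggtgccatctCTACCTCt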

How the data were processed

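Per the labels' protocols, libraries were made from total RNA with a directional kit. The authors deposited raw counts per gene from 6 libraries, made with featureCounts 2.0.1 in paired mode over exons of Ensembl release 107, per the file headers. No strand, multi-mapping or multi-overlap option was set there. The build is hg38, per the submitters' processing notes, and alignment files were named hisat, per the file headers.

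Genes passing filterByExpr (15476, with 99.82% of the counts) were TMM-scaled and tested with edgeR 4.0.16 (R 4.3.3), by the 2-sided quasi-likelihood F test (glmQLFTest); p-values were adjusted by Benjamini and Hochberg over all tested genes. SE is the absolute log2 fold change over the square root of F. Symbols came from a gene name table, and positions, exon lengths and transcripts from GENCODE 29 (GRCh38), which is not the release the authors counted with. The design assumed lengths in the table. The table has none, so the exon union was used. Of 15476 genes with simulated counts for this comparison, 15255 passed the filter. Of genes changed 1.25-fold 58% were recovered, with 86% at 1.5-fold and 100% at 2-fold, and 7 false calls among 15055 unchanged genes tested. The simulation gave all genes the same biological spread and had no deviating library, so these rates may not hold for the real counts.

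The members and lists were chosen with earlier results of these data known, so no list has a test. Named genes are the 10 members, TNRC6B, TNRC6C and PRKRA, the 3 called genes with the smallest p of each list (and 1 in the less frequent direction), and all 6 neighbours of the AGO cluster. Alternatives were other scalings, limma-voom 3.58.1, DESeq2 1.42.0, other filters, a replicate block and left-out libraries.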

Additional observations from a re-analysis of the deposited data

How the results depend on the processing

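AGO2, DICER1, DROSHA and TNRC6A kept their direction and call in all 14 alternatives, with log2 fold changes of 0.51 to 0.64, 0.28 to 0.34, -0.28 to -0.22 and -0.28 to -0.20. AGO3 kept its direction but lost its call in 5 of the 14, as given with its values, so the members called higher numbered 2 to 3 with a library left out, and those called lower 2 throughout. AGO1, DGCR8, XPO5, TARBP2 and AGO4 passed in none, the lowest adjusted p being 0.0525 for XPO5. MicroRNA hosts called higher numbered 3 to 5 with a library left out (3 without knockdown replicate 3). Hosts called lower numbered 2 in the main fit and 1 with genes of at least 5 CPM, where fewer genes are tested. They numbered 3 without control replicate 2 and also without both replicates numbered 2. With principal transcript lengths the mean DROSHA to DGCR8 ratio was 1.367 in the controls and 1.1 in the knockdown, against 1.511 and 1.216 with exon lengths. Same-numbered libraries did not deviate together (correlations of 0.03, 0.07 and -0.04), so the numbers were not taken as pairs; with a replicate block 2123 genes were higher and 1978 lower against 2164 and 2079, and the members gave 3 higher and 2 lower as before. The fewest counts of a member, 218 for AGO3, limit its precision.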

Other observations

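Proteins that bind or sense double-stranded RNA were also compared, since DICER1, TARBP2 and PRKRA belong to that wider class of binders. Of 21 tested genes 3 rose, 8 fell and 10 did not pass, with a median log2 fold change of -0.08 against 0.001 over all tested genes. The share called was 52.4%, against 27.4% of all tested genes and 39.7% of those with a mean CPM at least that of AGO4. DHX58, a regulator of cytosolic RNA sensing, fell from a mean of 57.7 to 38.7 CPM (log2 fold change -0.58 with an SE of 0.0607, adjusted p = 1.9e-06 in edgeR). The oligoadenylate synthetases OAS3 (-0.73) and OAS2 (-0.76) fell as well. Like DHX58 and other genes of the list that fell, they are interferon-stimulated genes. That group was already seen to be lower in earlier results of these data, so these falls and the list's share add no independent support. STAU2, a double-stranded RNA binder of messenger RNA transport, rose from a mean of 50.8 to 62.9 CPM (log2 fold change 0.31 with an SE of 0.0611, adjusted p = 0.00114 in edgeR).

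Some microRNA hosts could not be tested. MIR22HG is listed at 0 counts in all 6 libraries and MIR210HG has 12 counts over the 6.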
